A study of Mus with 12 samples.

Results

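The EGR and NR4A receptor-signal factors are the 6 genes Egr1, Egr2, Egr3, Nr4a1, Nr4a2 and Nr4a3, taken by symbol from a table of 55487 mouse genes. All 6 were among the 13396 genes that reached an FPKM (a count of sequenced fragments scaled to transcript length and to the size of the library) of at least 1 in at least 2 libraries and were tested. Egr1, Egr2 and Egr3 encode zinc-finger transcription factors that are transcribed soon after antigen receptor engagement. For Egr1 this runs largely through the ERK kinases and serum response factor. Nr4a1, Nr4a2 and Nr4a3 encode orphan nuclear receptors that are induced by calcium and ERK signals from the same receptor, and Nr4a1 reporters are widely used as a read-out of receptor signal strength. In T cells, EGR1 is known to support the early activation program, whereas EGR2, EGR3 and the NR4A receptors are also known for restraining activated cells in anergy and exhaustion.

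The libraries came from splenic naive CD8 T cells of C57BL/6 mice in 3 genotypes, namely RARα-KO, BATF-KO and WT. RARα-KO mice carried a floxed Rara gene and the dLck-Cre transgene, whose distal Lck promoter drives Cre in T cells, BATF-KO mice lacked the AP-1 family factor BATF, and WT controls were C57BL/6 mice or carried dLck-Cre alone. For 20 h every culture received plate-bound anti-CD3 at 1 µg/ml, CD28 antibody at 2 µg/ml and 100 U/ml of IL-2, in medium whose 10% serum had been stripped with charcoal, and all-trans retinoic acid (RA, 15 nM) was present or absent, which gave 6 groups of 2 libraries. The RA cultures are known only from the suffix of their titles. The study's methods give age-matched young mice of both sexes for most of its experiments, and also say that later work centred on males. The methods give neither the age nor the sex for these cultures, nor whether replicates came from separate mice. The p-values therefore measure only the spread between these libraries.

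The libraries held 12085 to 12486 genes at 1 FPKM or more, and replicates correlated at 0.973 to 0.986 across genes. Absolute depth is unknown because the table holds FPKM and no counts. Batf was at 4.05 to 4.90 FPKM in the 4 BATF-KO libraries and at 19.1 to 34.0 FPKM in the 8 others, whereas Rara was at 13.7 to 17.9 FPKM in RARα-KO, against 11.1 to 17.6 FPKM elsewhere, which does not check the deletion since a level over the whole gene can include transcripts that lack the floxed part. Markers of other cells differed between the genotypes. The summed level of 12 B cell markers was 861 to 1063 FPKM in RARα-KO, against 263 to 460 FPKM in the 8 other libraries, that of 9 NK cell markers 78.4 to 107 against 13.3 to 53.8 FPKM, and that of 9 myeloid markers 98.6 to 159 against 25.5 to 86.4 FPKM. The 10 CD8 T cell markers had sums of 2822 to 3544 FPKM with RARα deleted, against 3617 to 4667 FPKM in the 8 remaining libraries. No marker of the B cell list was at 0 in any library. In bulk RNA, fewer cells of a type and less RNA per cell cannot be told apart, and B, NK and myeloid cells also use EGR and NR4A genes. The part of these cells in the differences below was not tested.

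In RARα-KO with RA, Egr1 was at 31.4 and 41.4 FPKM, and at 24.8 and 38.2 FPKM in RARα-KO without RA. In BATF-KO it was at 28.2 and 17.8 FPKM with RA and at 24.1 and 12.8 FPKM without RA, and in WT at 21.1 and 25.1 FPKM with RA and at 11.9 and 23.1 FPKM without RA. Both RARα-KO groups therefore lay above the WT group of the same treatment with no overlap, but the lower RARα-KO library without RA was below the higher BATF-KO library with RA. The order of the 6 group means ran RARα-KO with RA, RARα-KO, WT with RA, BATF-KO with RA, BATF-KO and WT, and every neighbouring pair in it overlapped.

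Egr2 (chromosome 10, 67534469 to 67542188, GRCm38 as annotated by RefSeq) was at 18.2 and 30.1 FPKM in RARα-KO with RA and at 14.8 and 26.4 FPKM in RARα-KO without RA. In BATF-KO it was at 18.7 and 10.7 FPKM with RA and 15.8 and 9.63 FPKM without it, and in WT at 11.5 and 14.7 FPKM with RA and 8.68 and 16.1 FPKM without it. The highest 2 values were the replicate 2 libraries of RARα-KO, and replicate 1 of the same genotype lay within the range of the 8 other libraries. No neighbouring pair in the order of its group means was free of overlap.

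Egr3 (chromosome 14, 70077317 to 70082613) was at 19.9 and 32.8 FPKM in RARα-KO with RA and at 19.8 and 32.7 FPKM in RARα-KO without RA. The 4 BATF-KO libraries held 18.6 and 12.5 FPKM with RA and 19.6 and 9.44 FPKM without RA, and the 4 WT libraries 15.1 and 15.9 FPKM with RA and 8.85 and 17.9 FPKM without RA. All 4 RARα-KO libraries were above all 8 others, by a margin of 19.76 FPKM in the lowest RARα-KO library against 19.65 FPKM in the highest of the rest.

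Nr4a1 (chromosome 15, 101253902 to 101274795), which encodes NUR77, had the highest FPKM, a level per length, of the 6 in every library. It was at 72.2 and 83.3 FPKM in RARα-KO with RA and at 62.2 and 90.4 FPKM in RARα-KO without RA, against 52.5 and 28.9 FPKM in BATF-KO with RA, 54.8 and 25.1 FPKM in BATF-KO, 44.0 and 47.0 FPKM in WT with RA and 28.4 and 56.7 FPKM in WT. The lowest RARα-KO library was above the highest of the 8 others (62.2 against 56.7 FPKM). Nr4a1 and Egr3 were thus the 2 of 6 members with all 4 RARα-KO libraries above all 8 others, a pattern that 5.92% of the tested genes had.

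Nr4a2 (chromosome 2, 57106830 to 57124003), which encodes NURR1, differed least between groups. Its levels were 12.7 and 17.9 FPKM in RARα-KO with RA, 10.96 and 18.1 FPKM in RARα-KO, 16.1 and 10.99 FPKM in BATF-KO with RA, 16.8 and 10.3 FPKM in BATF-KO, 10.2 and 17.1 FPKM in WT with RA and 9.36 and 16.9 FPKM in WT. Its 6 group means lay between 13.1 and 15.3 FPKM and every group overlapped its neighbour in their order. The SD of the group means was 0.084 on the log2 scale for Nr4a2, against 0.38 to 0.66 for the other 5 members and a median of 0.141 over all tested genes.

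Nr4a3 (chromosome 4, 48045078 to 48086447), which encodes NOR1, had the widest range, with a 6.13-fold difference between the highest and the lowest library against 1.93-fold for Nr4a2 and 3.47 to 3.71-fold for the 4 other members. It was at 28.4 and 69.5 FPKM in RARα-KO with RA and at 22.8 and 77.4 FPKM in RARα-KO, against 18.4 and 12.7 FPKM in BATF-KO with RA, 19.2 and 12.6 FPKM in BATF-KO, 21.9 and 23.8 FPKM in WT with RA and 14.7 and 26.8 FPKM in WT. The high values belonged to the 2 RARα-KO libraries of replicate 2. Replicate 1 of RARα-KO without RA was below replicate 2 of WT.

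**Figure D1:**
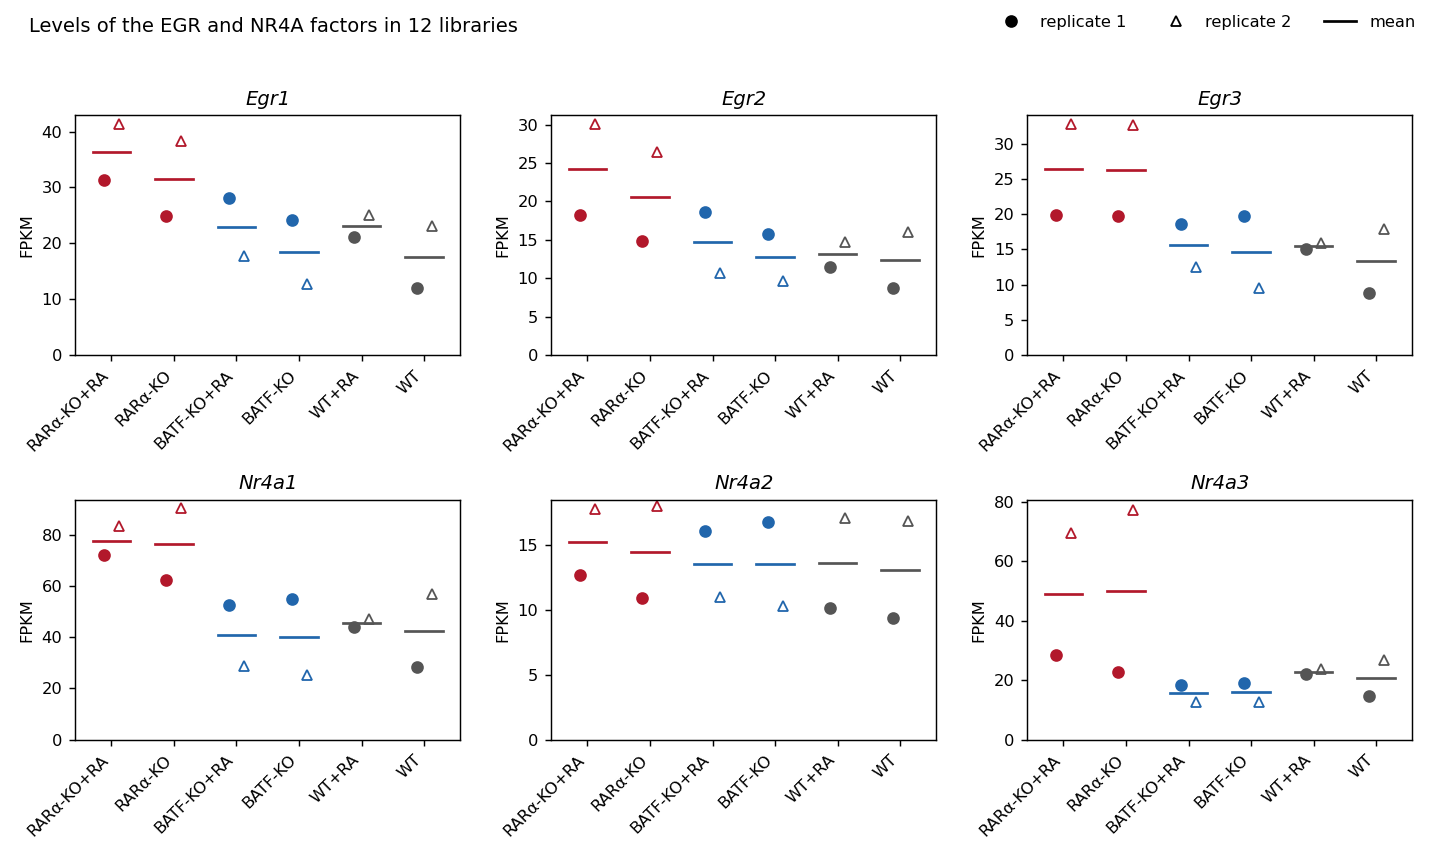
FPKM of each EGR and NR4A factor (vertical axis) in the 6 groups of 2 libraries, with replicate 1 as filled circles, replicate 2 as open triangles and the group mean as a line. The 4 RARα-KO libraries sit above all others for Nr4a1 (62.2 FPKM or more) and narrowly for Egr3, Nr4a2 is at similar levels in the 6 groups, and replicate 1 is the higher one in both BATF-KO groups of every gene.

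Deletion of RARα was compared with WT to ask what the receptor does to gene expression in activated CD8 T cells. Without RA, the log2 fold change (RARα-KO over WT) was 0.85 ± 0.38 for Egr1, 0.70 ± 0.41 for Egr2, 0.96 ± 0.42 for Egr3, 0.88 ± 0.42 for Nr4a1, 0.15 ± 0.38 for Nr4a2 and 1.05 ± 0.57 for Nr4a3 (± SE, n = 2 libraries per group). With RA, the values were 0.63 ± 0.38, 0.80 ± 0.41, 0.69 ± 0.42, 0.76 ± 0.42, 0.17 ± 0.38 and 0.93 ± 0.57 in the same order of genes. All 12 estimates were positive, and none was called by limma at an adjusted p under 0.05. The adjusted p was 0.491 to 0.970 without RA and 0.494 to 0.931 with RA, whereas 3.29% and 3.76% of the tested genes were called in these 2 comparisons. At an unadjusted p under 0.05 there was 1 member without RA, Egr3, and 0 with RA, against 9.88% and 12.3% of the tested genes. The libraries did not overlap for 3 of 6 members without RA (Egr1, Egr3 and Nr4a1), where 15.0% of the tested genes were higher in RARα-KO with no overlap, and for 5 of 6 with RA (all except Nr4a2), where 20.1% were.

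Compared within a replicate number, which in these titles is only a shared number, RARα-KO was higher than WT in 4 of 4 comparisons for each of the 6 members, as it was for 16.3% of the tested genes. The FPKM ratio of RARα-KO to WT was 1.49 to 2.08 for Egr1, 1.59 to 2.05 for Egr2, 1.32 to 2.23 for Egr3, 1.59 to 2.19 for Nr4a1 and 1.04 to 1.25 for Nr4a2. For Nr4a3 it was 1.56 and 1.29 in replicate 1, without and with RA, and 2.89 and 2.92 in replicate 2. Leaving out replicate 2 of RARα-KO brought the Nr4a3 difference without RA to 0.19, and leaving out replicate 1 of RARα-KO brought it to 1.91. Without WT replicate 1, the differences were 0.40 for Egr1, 0.29 for Egr2, 0.49 for Egr3 and 0.40 for Nr4a1. With RA, leaving out single libraries gave 0.43 to 0.82 for Egr1, 0.46 to 1.15 for Egr2, 0.34 to 1.03 for Egr3, 0.66 to 0.86 for Nr4a1 and 0.30 to 1.56 for Nr4a3, the low value without replicate 2 and the high one without replicate 1 of RARα-KO with RA in each case.

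**Figure D2:**
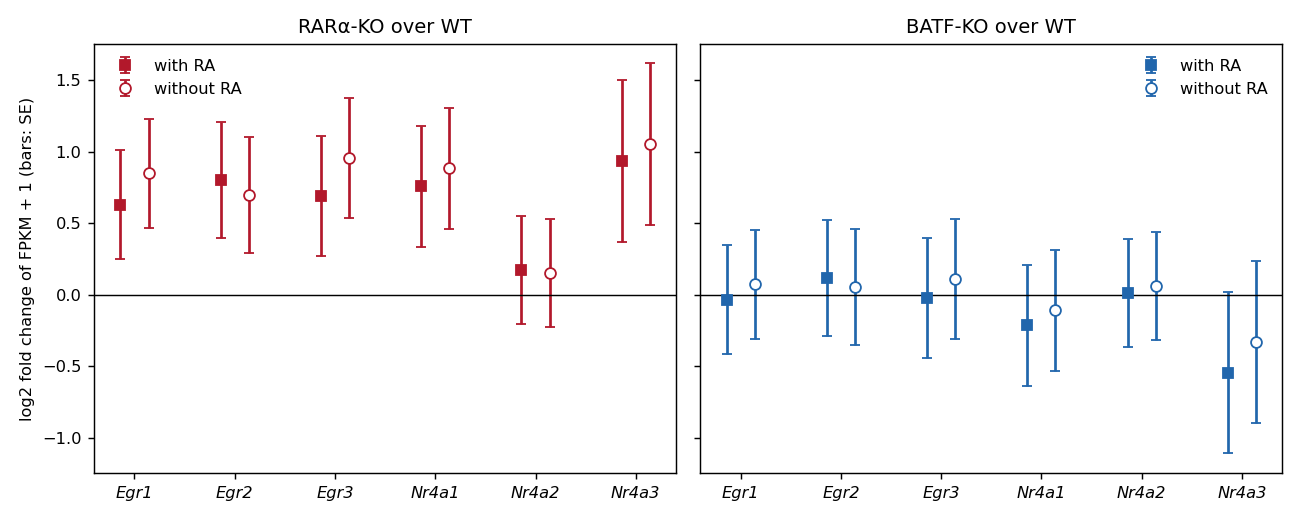
log2 fold change of FPKM + 1 with its standard error (vertical axis) for each factor, in RARα-KO over WT (left) and BATF-KO over WT (right), with RA as filled squares and without RA as open circles (n = 2 libraries per group). Estimates for RARα-KO lie between 0.15 and 1.05 and none was called, and those for BATF-KO lie between -0.55 and 0.12.

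BATF deletion was compared with WT in the same way. The log2 fold changes (BATF-KO over WT) ran from -0.33 for Nr4a3 to 0.11 for Egr3 without RA and from -0.55 for Nr4a3 to 0.12 for Egr2 with RA, each with an SE of 0.38 to 0.57. Those of Egr1, Egr2, Nr4a1 and Nr4a2 were 0.07, 0.06, -0.11 and 0.06 without RA, and those of Egr1, Egr3, Nr4a1 and Nr4a2 were -0.04, -0.02, -0.22 and 0.01 with RA. No member was called by limma (adjusted p 1.0 in each case), at 0.0523% and 0.0672% of the tested genes called, and 0 of 6 had an unadjusted p under 0.05 in either comparison, against 3.89% and 4.78% of the tested genes. The only member with no overlap was Nr4a3 with RA, at 18.4 and 12.7 FPKM in BATF-KO and 21.9 and 23.8 FPKM in WT, a pattern of 13.8% of the tested genes.

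Those small mean differences joined large ones of opposite sign. Between the libraries numbered 1 without RA, BATF-KO over WT was 2.02-fold for Egr1, 1.82-fold for Egr2, 2.22-fold for Egr3, 1.93-fold for Nr4a1, 1.79-fold for Nr4a2 and 1.31-fold for Nr4a3. Between the libraries numbered 2, the same FPKM ratios were 0.552, 0.600, 0.529, 0.443, 0.612 and 0.472. With RA, 5 of 6 members again were higher in BATF-KO at number 1 and lower at number 2, and Nr4a3 was lower at both (ratios of 0.841 and 0.535). Of the tested genes, 12.4% were higher in BATF-KO in both comparisons at number 1 and lower in both at number 2.

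RARα-KO and BATF-KO were also set against each other. These comparisons share the RARα-KO libraries with those against WT. The log2 fold changes (RARα-KO over BATF-KO) without RA were 0.78 ± 0.38 for Egr1, 0.64 ± 0.41 for Egr2, 0.85 ± 0.42 for Egr3, 0.99 ± 0.42 for Nr4a1, 0.09 ± 0.38 for Nr4a2 and 1.38 ± 0.57 for Nr4a3. With RA they were 0.66 for Egr1, 0.69 for Egr2, 0.71 for Egr3, 0.97 for Nr4a1, 0.17 for Nr4a2 and 1.48 for Nr4a3. Nr4a3 with RA had the lowest adjusted p of all 66 member tests by limma, 0.264, and no member was called, against 3.75% and 4.16% of the tested genes. Nr4a1 and Nr4a3 had an unadjusted p under 0.05 in both comparisons, as 12.8% and 13.5% of the tested genes did. The libraries did not overlap for 4 of 6 members (Egr1, Egr3, Nr4a1 and Nr4a3) both without and with RA, where 18.5% and 18.7% of the tested genes were higher in RARα-KO with no overlap. For Nr4a3 without RA, the difference was 2.24 without replicate 1 of RARα-KO and 0.52 without replicate 2. The other leave-out values without RA were 0.34 to 1.21 for Egr1, 0.24 to 1.04 for Egr2, 0.36 to 1.34 for Egr3 and 0.44 to 1.54 for Nr4a1. With RA they were 0.35 to 0.98 for Egr1, 0.31 to 1.06 for Egr2, 0.36 to 1.06 for Egr3, 0.55 to 1.39 for Nr4a1 and 0.85 to 2.11 for Nr4a3, with the extremes set by single BATF-KO or RARα-KO libraries.

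The replicates of each group differed in a pattern that the 6 genes shared. Replicate 2 was above replicate 1 for all 6 genes in RARα-KO with RA, RARα-KO, WT with RA and WT, and below it for all 6 genes in both BATF-KO groups. This combination of 6 directions was found in 4.87% of the tested genes. In WT without RA, replicate 2 was 1.81 to 2.02-fold above replicate 1, and only 3.61% to 6.58% of the tested genes had a larger gap there. In BATF-KO without RA, replicate 2 was at 0.458 to 0.659 of replicate 1, with 1.20% to 6.39% of the genes showing a larger gap. In WT with RA, Egr3, Nr4a1 and Nr4a3 were 1.06, 1.07 and 1.08-fold higher in replicate 2, below the median gap of all genes. Nr4a2 kept a 1.68-fold gap there. In RARα-KO with RA, Nr4a1 was also below the median gap, at 1.15-fold. The largest gap of all was that of Nr4a3 in RARα-KO, 3.39-fold without RA and 2.45-fold with RA, and 0.567% and 1.49% of the genes had a larger one.

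**Figure D3:**
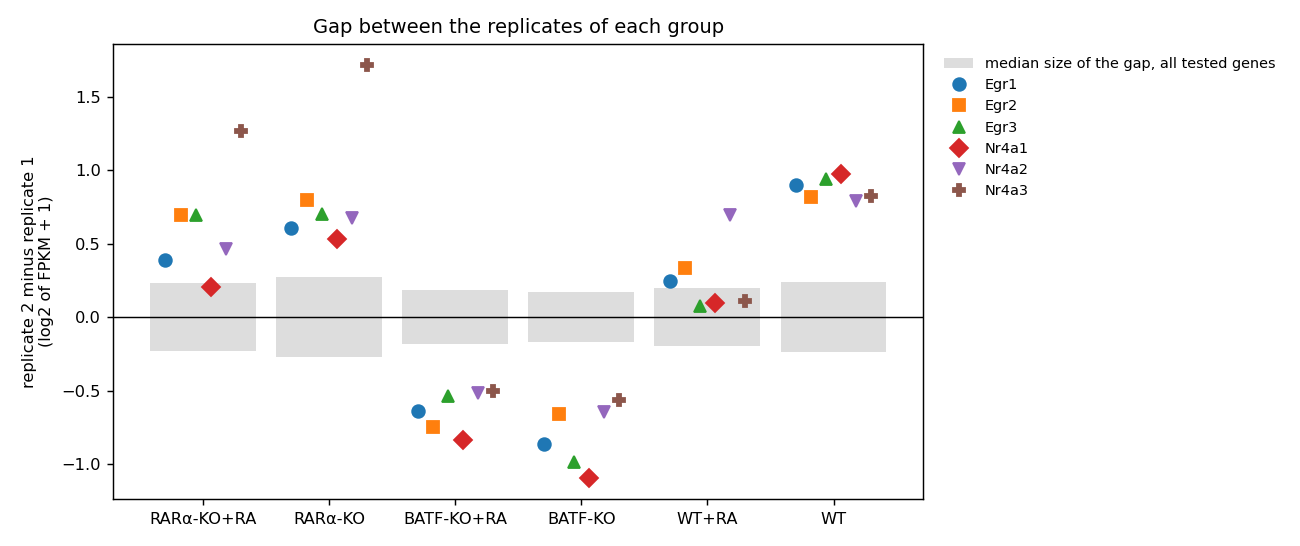
Difference between replicate 2 and replicate 1 on the log2 scale of FPKM + 1 (vertical axis) for each factor in the 6 groups, with grey bands for the median size of the gap over all tested genes (0.17 to 0.27). All 6 factors lie above 0 in the RARα-KO and WT groups and below 0 in both BATF-KO groups, and Nr4a3 reaches 1.72 in RARα-KO.

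As a result the spread within groups was large for these genes. The pooled SD of log2(FPKM + 1) within groups was 0.453 for Nr4a2, 0.460 for Egr1, 0.490 for Egr2, 0.509 for Egr3, 0.516 for Nr4a1 and 0.696 for Nr4a3, against a median of 0.202 over all tested genes. Between 2.03% and 8.44% of the tested genes had a larger one. Erythroid and platelet markers were higher in replicate 1 of every genotype, with sums of 142.7 to 505 FPKM in replicate 1 and 11.2 to 29.0 FPKM in replicate 2, which is not the pattern of the 6 factors. Over the 8 BATF-KO and WT libraries, the marker sums correlated with the members in both directions (Pearson's r, as a description). It was 0.24 to 0.82 for 4 CD4 T cell markers, 0.18 to 0.54 for myeloid cells, 0.04 to 0.45 for dendritic cells, -0.07 to 0.24 for erythroid cells and platelets, -0.46 to 0.04 for NK cells, -0.66 to -0.34 for B cells, -0.70 to -0.41 for memory-phenotype CD8 T cells and -0.77 to -0.61 for CD8 T cells. The CD4 T cell sums, like the members, were higher in replicate 1 of BATF-KO (11.8 and 11.3 FPKM with RA, 13.6 and 10.7 FPKM without RA) and in replicate 2 of WT (8.37 and 11.3 FPKM with RA, 8.61 and 13.0 FPKM without RA), but in RARα-KO they were higher in replicate 1 (18.0 and 13.4 FPKM with RA, 16.5 and 13.3 FPKM without RA). Not every gene of the CD4 T cell list ran like its sum. Cd4 itself was lower in replicate 1 of BATF-KO (0.61 and 0.93 FPKM with RA, 0.73 and 0.92 FPKM without RA). In WT it was at 3.82 and 3.79 FPKM with RA and at 3.46 and 4.26 FPKM without RA. Zbtb7b was higher in replicate 1 of WT (1.96 and 1.82 FPKM with RA, 2.64 and 2.45 FPKM without RA). The gene of this list with the highest level in any library was Foxp3, at 1.17 to 10.15 FPKM over the 12 libraries. Cd4 was at 0.61 to 4.26 FPKM, Zbtb7b at 1.71 to 6.55 FPKM and Cd40lg at 0.31 to 1.98 FPKM. Myeloid sums were also higher in replicate 1 of BATF-KO (73.55 and 25.5 FPKM with RA, 86.4 and 25.8 FPKM without RA). So were NK cell sums (51.45 and 28.6 FPKM with RA, 53.8 and 26.3 FPKM without RA). Unlike the members, both sums were higher in replicate 1 of WT and RARα-KO as well. B cell sums were higher in replicate 2 of RARα-KO (896 and 1063 FPKM with RA, 861 and 931 FPKM without RA), but in replicate 1 of WT. The part of any of these cell types in the spread was not tested.

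Over the 12 libraries, the 15 pairs of members correlated at 0.65 to 0.97 (Pearson's r of log2(FPKM + 1), median 0.89). The libraries share genotype and replicate number, so r is given without a test. Egr1, Egr2, Egr3 and Nr4a1 formed the tightest set, with r of 0.92 to 0.97. Nr4a2 correlated at 0.65 with Nr4a3, 0.70 with Nr4a1 and 0.82 with Egr2. The gaps between replicates 2 and 1 correlated at 0.78 to nearly 1 over the 6 groups (0.996 for Egr1 with Nr4a1), and there Nr4a2 was at 0.96 with Egr1, 0.95 with Egr2 and Nr4a1, 0.91 with Egr3 and 0.78 with Nr4a3, the lowest of the 15 pairs.

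The FPKM ratios to Nr4a2 were also compared. Egr1 was 2.12 to 2.47 times the level of Nr4a2 in the 4 RARα-KO libraries and 1.24 to 2.07 times in the 8 others. Egr2 was at 1.35 to 1.69 times Nr4a2 in RARα-KO and 0.860 to 1.16 times in the others, Egr3 at 1.56 to 1.84 against 0.913 to 1.48 times, and Nr4a1 at 4.67 to 5.69 against 2.43 to 4.32 times. The ranges did not overlap for these 4 genes, and those of Nr4a2 to Nr4a3 overlapped, at 0.234 to 0.480 in RARα-KO against 0.464 to 0.876 in the others. In relation to Nr4a2, 3.48% of the tested genes were above all 8 other libraries in all 4 RARα-KO libraries. These ratios were chosen after the values were seen and carry no test.

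**Figure D4:**
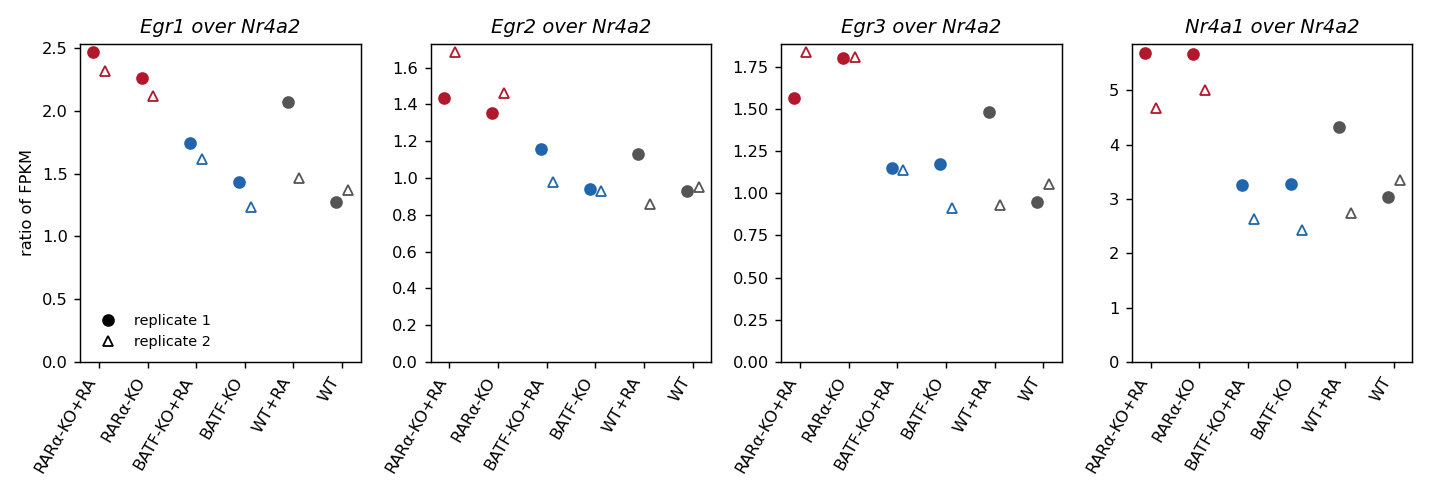
Ratio of the FPKM of Egr1, Egr2, Egr3 and Nr4a1 to that of Nr4a2 (vertical axes, from 0) in the 12 libraries, with replicate 1 filled and replicate 2 open. All 4 RARα-KO libraries lie above the 8 others in each panel, as with Nr4a1 at 4.67 or more against 4.32 or less.

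RA was added to ask how the ligand of RARα acts in each genotype. Cultures with and without RA that shared genotype and replicate number deviated from their group means together (r of 0.43 in WT, 0.40 in BATF-KO and 0.58 in RARα-KO across genes) and were read as pairs. Same-numbered libraries of WT and RARα-KO without RA reached an r of 0.45, so r does not single out the pairs of WT and BATF-KO. Egr1 was higher with RA in 6 of 6 pairs. It was at 31.4 against 24.8 FPKM and 41.4 against 38.2 FPKM in the RARα-KO pairs, 28.2 against 24.1 FPKM and 17.8 against 12.8 FPKM in the BATF-KO pairs, and 21.1 against 11.9 FPKM and 25.1 against 23.1 FPKM in the WT pairs. The ratio ranged from 1.08 in replicate 2 of RARα-KO to 1.76 in replicate 1 of WT. Egr2 was higher with RA in 5 of 6 pairs, the exception being replicate 2 of WT (14.7 against 16.1 FPKM). Egr3 and Nr4a2 were higher in 4 of 6 pairs, and Nr4a1 and Nr4a3 in 3 of 6.

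limma called no member for RA in any genotype. The log2 fold change of Egr1 (RA over no RA) was 0.44 in WT, 0.33 in BATF-KO and 0.22 in RARα-KO, each ± 0.38, with an adjusted p of 0.917, 1.0 and 1.0. Egr2 had 0.13, 0.18 and 0.23 in the same order of genotypes, Egr3 had 0.28, 0.15 and 0.01, Nr4a1 had 0.17, 0.07 and 0.05, Nr4a2 had 0.06, 0.01 and 0.09, and Nr4a3 had 0.19, -0.02 and 0.07. None of these 18 tests had an unadjusted p under 0.05, as 4.92%, 3.28% and 1.42% of the tested genes did, and 0.0672%, 0.157% and 0.00746% of the tested genes were called in WT, BATF-KO and RARα-KO. With the pairs as a replicate block, the SE of Egr1 fell to 0.16 and its adjusted p was 0.181 in WT, 0.481 in BATF-KO and 1.0 in RARα-KO. No member was called in that fit either, in which the genes called over the whole table numbered 70, 119 and 11, against 9, 21 and 1 without the block.

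The mean over the 3 genotypes was added after the direction of Egr1 had been seen. The mean difference over the 6 pairs was 0.33 ± 0.25 for Egr1, 0.18 ± 0.17 for Egr2, 0.14 ± 0.33 for Egr3, 0.10 ± 0.31 for Nr4a1, 0.06 ± 0.09 for Nr4a2 and 0.08 ± 0.28 for Nr4a3 on the log2 scale (SD, n = 6 pairs). Of the tested genes, 7.88% were higher with RA in 6 of 6 pairs, and limma with the pair block gave adjusted p = 0.119 for Egr1 and 0.205 for Egr2 over all genes. Without the block it gave 0.961 for both, and called 0.478% of the tested genes, with 6.05% at an unadjusted p under 0.05 and no member among either.

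**Figure D5:**
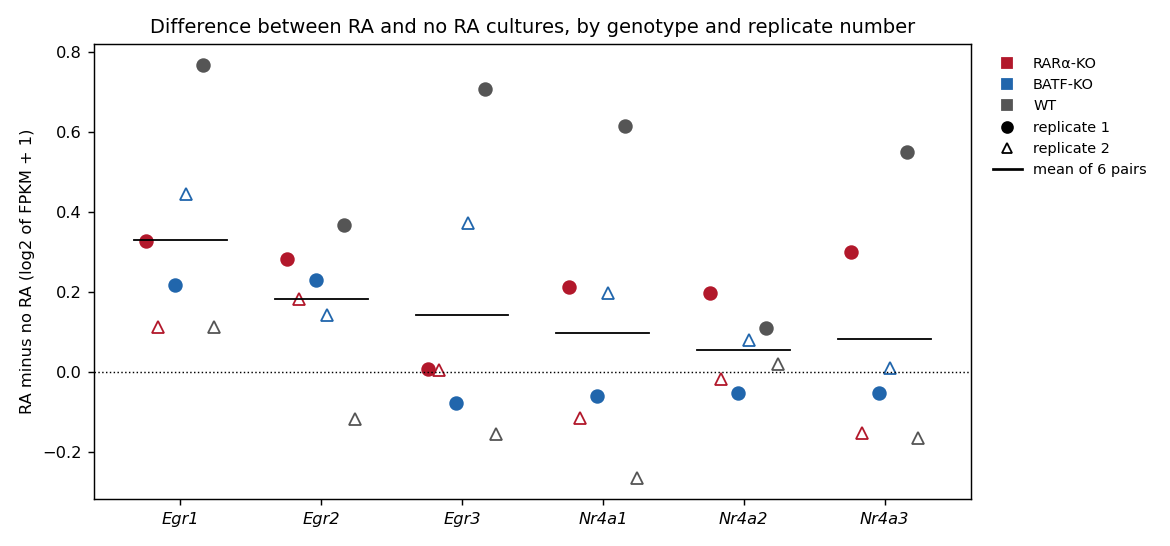
Difference between the RA and the no RA library of each genotype and replicate number on the log2 scale of FPKM + 1 (vertical axis) for the 6 factors, with the mean of the 6 pairs as a line. Egr1 lies above 0 in 6 of 6 pairs, from 0.11 to 0.77, and the highest difference of Egr1, Egr2, Egr3, Nr4a1 and Nr4a3 is that of WT replicate 1.

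The RA effect was not shown to differ between genotypes for any member. The RA effect in RARα-KO minus that in WT ran from -0.27 for Egr3 to 0.11 for Egr2, with -0.22 for Egr1, -0.13 for Nr4a1, 0.03 for Nr4a2 and -0.12 for Nr4a3. That in BATF-KO minus that in WT ran from -0.21 for Nr4a3 to 0.06 for Egr2, with -0.11 for Egr1, -0.13 for Egr3, -0.11 for Nr4a1 and -0.05 for Nr4a2. limma called 0 of 6 members in both interactions, with 0 at an unadjusted p under 0.05 (1.37% and 1.12% of the tested genes), and the lowest adjusted p with the pair block was 0.694 and 0.906. No gene of the whole table was called in either interaction (0.0% of the tested genes).

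Genes that act around these factors were counted from lists that were chosen with earlier results of these data known. The counts below are therefore a description. In RARα-KO over WT, limma called 3.29% of all tested genes without RA and 3.76% with RA. Upstream, 0 of 15 T cell receptor signalling genes, 0 of 10 genes of calcium, calcineurin and NFAT and 0 of 9 genes of the ERK pathway and its SRF partners were called in RARα-KO over WT, without or with RA. Their median log2 fold changes were -0.19, -0.01 and -0.02 without RA and -0.06, 0.08 and 0.07 with RA, against a median of -0.003 and -0.005 over all tested genes. The smallest adjusted p in these 3 lists belonged to Cd3e without RA (log2 fold change -0.34, limma adjusted p = 0.456) and to Ppp3ca, a calcineurin subunit, with RA (0.65, adjusted p = 0.219). Egr4, the remaining EGR gene, was at 0.09 to 0.59 FPKM and was not tested. Nab1, a corepressor that binds EGR proteins, differed by 0.23 without RA and 0.36 with RA (adjusted p = 0.848 and 0.437).

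Among 9 ERK phosphatase and Sprouty genes, which feed back on the ERK pathway, only Dusp5 was called in RARα-KO over WT. Of all tested genes, 3.29% were called there without RA and 3.76% with RA. Dusp5, a nuclear phosphatase of ERK, was at 18.8 and 21.2 FPKM in RARα-KO with RA and 16.5 and 23.7 FPKM in RARα-KO, against 11.02 and 10.1 FPKM in WT with RA and 7.05 and 9.97 FPKM in WT. It rose by 1.14 ± 0.20 without RA (limma adjusted p = 0.0127) and by 0.86 ± 0.20 with RA (adjusted p = 0.0495). Among single libraries, leaving out WT replicate 1 or RARα-KO replicate 2 lost the call without RA, and the call with RA was lost in 18 of 26 alternatives.

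Of 18 other immediate early and activation genes, 3 were called higher in RARα-KO than in WT without RA and 1 with RA, whereas 15 and 17 were not called, at 3.29% and 3.76% of all tested genes called. The log2 fold change was positive for 17 and 16 of the 18, with a median of 0.60 without RA and 0.45 with RA, against -0.003 and -0.005 over all tested genes. Tnfrsf9, which encodes the costimulatory receptor 4-1BB, was at 160 and 197 FPKM in RARα-KO with RA and 137 and 222 FPKM in RARα-KO, against 62.6 and 47.6 FPKM in WT with RA and 36.2 and 53.5 FPKM in WT. It rose by 1.96 ± 0.25 without RA (limma adjusted p = 0.00253) and by 1.68 ± 0.25 with RA (adjusted p = 0.00472), a call with RA that was lost without replicate 2 of RARα-KO with RA or of WT with RA. Jun, an AP-1 subunit, rose by 0.72 ± 0.11 without RA (adjusted p = 0.0055), at 45.7 and 47.2 FPKM in RARα-KO and 28.6 and 27.0 FPKM in WT, and lost the call without WT replicate 2. Klf10 rose by 1.28 ± 0.28 (adjusted p = 0.0391) and lost the call in 15 of 26 alternatives.

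Jun was also called for RA in BATF-KO. In BATF-KO it was at 37.6 and 38.8 FPKM with RA and 19.5 and 19.1 FPKM without RA, a rise of 0.95 ± 0.11 (limma adjusted p = 0.00956) that lost its call whenever 1 of these 4 libraries was left out. In WT it was at 48.9 and 43.6 FPKM with RA and at 28.6 and 27.0 FPKM without RA. In RARα-KO it was at 59.8 and 62.7 FPKM with RA and at 45.7 and 47.2 FPKM without RA. Jun was thus higher with RA in these genotypes too, with no overlap, though it was not called there. Over the 3 genotypes, a comparison added after the values were seen, it rose by 0.68 ± 0.06 (limma adjusted p = 0.00118). For all 6 factors in BATF-KO, the 2 libraries with RA overlapped the 2 without RA.

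Of 6 genes reported as EGR targets, all 6 had a positive log2 fold change in RARα-KO over WT without RA and 5 with RA, with medians of 0.62 and 0.43. Called were 0 and 1 of them, at 3.29% and 3.76% of all tested genes called. Fasl, the death receptor ligand, was at 2.72 and 1.93 FPKM in RARα-KO with RA and 0.69 and 0.36 FPKM in WT with RA, a rise of 1.12 ± 0.22 (limma adjusted p = 0.0206) that was lost when any of these 4 libraries was left out. The summed NK cell markers were also higher there, at 89.1 to 107 FPKM against 14.7 to 26.7 FPKM in WT with RA. The part of NK cells in the rise of Fasl was not tested. Tnf differed by 0.81 without RA and 0.55 with RA and was not called. In BATF-KO over WT, 1 of the 6 had a positive log2 fold change, with medians of -0.50 with RA and -0.36 without RA. There limma called 0 of the 6 in either, at 0.0672% of all tested genes called with RA and 0.0523% without RA.

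Of 11 genes linked to restraint and exhaustion, 9 were tested and 1 was called in RARα-KO over WT. The share of all tested genes called there was 3.29% without RA and 3.76% with RA. Entpd1, which encodes the ectonucleotidase CD39, was at 3.54 and 4.77 FPKM in RARα-KO with RA and 4.19 and 1.96 FPKM in RARα-KO, against 0.66 and 0.70 FPKM in WT with RA and 0.72 and 0.73 FPKM in WT. It rose by 1.18 ± 0.26 without RA (limma adjusted p = 0.0378, lost in 14 of 25 alternatives) and by 1.61 ± 0.26 with RA (adjusted p = 0.00696, lost without either WT library with RA and without replicate 2 of RARα-KO with RA). B cells and myeloid cells also carry CD39, and their markers were higher in the same libraries. The median of the list was 0.03 without RA and 0.05 with RA. When limma was fitted on the 4 compared libraries alone, none of Dusp5, Tnfrsf9, Jun, Klf10 and Entpd1 without RA, nor Dusp5 and Fasl with RA, was called.

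Against BATF-KO, with the same RARα-KO libraries, limma called 1 of 9 ERK phosphatase and Sprouty genes, 3 of 18 other immediate early genes and 2 of 6 EGR targets without RA, and 0 of 9, 4 of 18 and 2 of 6 with RA, where 3.75% and 4.16% of all tested genes were called. Without RA, Tnfrsf9 (1.82), Jun (1.22), Cd69 (1.02), Dusp5 (1.23), Fasl (1.26) and Icam1 (0.79) were called higher in RARα-KO by limma (log2 fold change, adjusted p 0.000289 to 0.0221). With RA, Tnfrsf9 (1.87), Jun (0.67), Junb (0.84), Cd69 (0.85), Fasl (1.19) and Icam1 (1.02) were called (adjusted p 0.00344 to 0.0485). Cd69, an early activation marker, lost its call with RA in 19 of 26 alternatives. The calls of Cd69, Icam1 and Fasl without RA and of Jun, Junb and Fasl with RA were each lost on leaving out 1 of several single libraries. That of Dusp5 without RA was lost without replicate 2 of BATF-KO or replicate 2 of RARα-KO. Icam1 with RA lost its call without replicate 2 of BATF-KO with RA. The call of Jun without RA held in 26 of 26 alternatives.

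The genes whose levels ran most like each member over the 12 libraries were taken from 8732 candidates with a mean of at least 5 FPKM. For Egr1 they were Egr3, Pogk, Egr2 and the zinc transporter gene Slc30a5 (r of 0.97 to 0.96), for Egr2 they were Egr3, the mitochondrial DNA polymerase gene Polg, Egr1 and Pogk (0.97 to 0.96), and for Egr3 they were Egr1, Egr2, Nr4a1 and Nploc4 (0.97 to 0.96). Nr4a1 ran closest to Egr3, Egr1, the histone demethylase gene Kdm6b and Egr2 (0.96 to 0.92). The nearest genes of 4 of the 6 members thus included other members.

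Nr4a2 and Nr4a3 had other neighbours. Nr4a2 was nearest to Sfpq and Dhx9, which encode nuclear RNA-binding proteins, and to Flvcr1 and Ppip5k2 (r of 0.97, 0.92, 0.92 and 0.91), and its nearest member, Egr2, was the 94th gene by r. Nr4a3 was nearest to the cytokine gene Tnf, Sh3bp2, Trp53rka and the chemokine gene Ccl3 (0.99, 0.98, 0.96 and 0.96), and its nearest member, Egr3, was the 45th. Tnf was at 60.4 and 55.1 FPKM in the replicate 2 libraries of RARα-KO without and with RA and at 16.8 to 32.1 FPKM in the 10 others, and Ccl3 at 348 and 364 FPKM against 57.1 to 155 FPKM, so that these 2 libraries were the highest for all of Nr4a3, Tnf and Ccl3.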

How the data were processed

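Bulk RNA was sequenced from 12 cultures of activated CD8 T cells in 6 groups of 2. The authors prepared poly-A enriched libraries (the labels also name a total RNA kit), aligned paired-end reads to GRCm38 with STAR 2.7.8a and estimated gene levels with RSEM 1.3.3. They deposited FPKM to 2 decimals, with no scaling between libraries beyond the scaling to library size that FPKM includes. The table holds no counts, so depth is unknown and no count model was run. Genes with at least 1 FPKM in at least 2 libraries were converted to log2(FPKM + 1), and limma 3.58.1 under R 4.3.3 fitted a mean for each of the 6 groups with a mean-variance trend. Fold changes on this scale understate those of low genes. Two-sided p-values were adjusted by Benjamini-Hochberg within each of 11 comparisons over all 13396 genes, and genes were called at an adjusted p under 0.05. The fit was tested on simulated data. Python 3.11.15 with pandas 2.3.3, numpy 2.4.6 and matplotlib 3.10.9 served for the other steps.

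The members and lists were chosen with earlier results of these data known. Named are the 6 members, called genes of the lists or up to 4 with the smallest adjusted p, Batf and Rara, and for each member the 4 genes of highest r among those with a mean of at least 5 FPKM that are not predicted models or receptor segments. Alternatives were pseudocounts of 0.5 and 0.1, other filters, TPM and median-ratio scaling, array weights, no trend, only the libraries compared, each library left out and a replicate block. Deviations of RA and no RA libraries with the same genotype and number correlated at 0.398 to 0.578 across genes, so these were treated as pairs. Same-numbered WT and RARα-KO libraries without RA, which are not pairs, correlated at 0.452. The ratios to Nr4a2, the mean RA effect over 3 genotypes and the removal of both libraries of a genotype and number were added after the data were seen.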

Additional observations from a re-analysis of the deposited data

How the results depend on the processing

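No member was called in any comparison under the 26 alternatives kept here (27 for RA), where the lowest adjusted p of limma was 0.0636, for Nr4a3 in RARα-KO against BATF-KO without replicate 1 of RARα-KO. With 1 or 2 libraries left out, 929 member values kept their direction and 151 changed sign, and these are given as ranges over the leave-outs, without RA unless stated. The log2 fold change ranged over Nr4a2 -0.24 to 0.54 for RARα-KO against WT, and Nr4a2 -0.17 to 0.52 for RARα-KO against WT with RA. It ranged over Egr1 -0.38 to 0.52, Egr2 -0.35 to 0.46, Egr3 -0.38 to 0.60, Nr4a1 -0.66 to 0.44, Nr4a2 -0.33 to 0.45, Nr4a3 -0.74 to 0.0802 for BATF-KO against WT, and Egr1 -0.36 to 0.28, Egr2 -0.26 to 0.49, Egr3 -0.29 to 0.25, Nr4a1 -0.63 to 0.20, Nr4a2 -0.34 to 0.36 for BATF-KO against WT with RA. It ranged over Nr4a2 -0.25 to 0.43 for RARα-KO against BATF-KO, and Nr4a2 -0.0922 to 0.42 for RARα-KO against BATF-KO with RA. It ranged over Egr1 -0.009 to 0.89, Egr2 -0.28 to 0.53, Egr3 -0.19 to 0.74, Nr4a1 -0.31 to 0.66, Nr4a2 -0.33 to 0.46, Nr4a3 -0.22 to 0.60 for RA in WT, and Egr1 -0.10 to 0.76, Egr2 -0.19 to 0.56, Egr3 -0.34 to 0.64, Nr4a1 -0.48 to 0.62, Nr4a2 -0.31 to 0.34, Nr4a3 -0.30 to 0.26 for RA in BATF-KO. It ranged over Egr1 -0.0822 to 0.52, Egr2 -0.16 to 0.63, Egr3 -0.34 to 0.35, Nr4a1 -0.22 to 0.31, Nr4a2 -0.25 to 0.43, Nr4a3 -0.79 to 0.93 for RA in RARα-KO, and Egr1 -0.67 to 0.23, Egr2 -0.30 to 0.52, Egr3 -0.74 to 0.20, Nr4a1 -0.61 to 0.36, Nr4a2 -0.37 to 0.42, Nr4a3 -0.98 to 0.74 for the RA effect in RARα-KO minus WT. It ranged over Egr1 -0.56 to 0.34, Egr2 -0.35 to 0.47, Egr3 -0.62 to 0.36, Nr4a1 -0.65 to 0.44, Nr4a2 -0.45 to 0.34, Nr4a3 -0.63 to 0.20 for the RA effect in BATF-KO minus WT, and Egr3 -0.0214 to 0.31, Nr4a1 -0.086 to 0.28, Nr4a2 -0.0759 to 0.19, Nr4a3 -0.21 to 0.37 for RA over the 3 genotypes. A lone library left in a group was assumed to vary like the other groups. Apart from these, 827 values under the other alternatives kept their direction, and 1 did not, since Nr4a2 in BATF-KO against WT with RA was -0.0002 after median-ratio scaling.

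Between genotypes at the same treatment, deviations of same-numbered libraries correlated at 0.0795 to 0.452, and the sources do not describe a number as a shared mouse or day. With the replicate number as a block over all groups, RARα-KO over WT without RA was 0.85 for Egr1 (adjusted p = 0.334) and 1.05 for Nr4a3 (adjusted p = 0.373), and the genes called over the table numbered 661 in place of 441. The lowest count for that comparison was 186, and those for the other comparisons of RARα-KO with WT or BATF-KO ran between 102 and 1000. BATF-KO against WT called 1 to 21 genes in place of 7 and 9, RA called 1 to 70 in WT in place of 9 0 to 119 in BATF-KO in place of 21 and 0 to 12 in RARα-KO in place of 1, and the interactions 0 to 16. A further block fit, with the 2 replicate numbers of BATF-KO exchanged, was run after the members' levels had been seen and did call Egr1, Egr2 and Egr3 in RARα-KO against WT without RA, Egr2 with RA, Egr1 and Egr2 against BATF-KO without RA, and Egr2 and Nr4a3 with RA. It was dropped, and its values are not reported, because the exchange was picked from the members' own values and same-numbered WT and BATF-KO libraries correlated positively across genes. For RA with the pairs of genotype and number as a replicate block, no member call changed, and the mean over the 3 genotypes called 464 genes in place of 64. Depth is unknown, so counting error could not be separated from the spread between 2 replicates.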
